A study of Mus musculus with 6 samples.

Results

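The nuclear genes of the mitochondrial respiratory chain and ATP synthase were followed in an assay of open chromatin in natural killer (NK) cells. Members were all consensus peaks whose nearest gene, as named in the authors' annotation, begins with Nduf, Uqcr or Atp5, is Sdha, Sdhb, Sdhc or Sdhd, or begins with Cox4 to Cox8. The names alone chose them, and 153 of the 51775 consensus peaks qualified, belonging to 82 genes. Of these, 51 peaks, each of a different gene, carried the annotation of a promoter and 102 did not. Those outside the promoter class were 20 peaks within 1 kb of the nearest start site, nearly all labelled as exon or intron, and 82 distal peaks farther away. A peak takes its gene by distance, so a distal peak need not act on the gene it is listed under.

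NK cells deficient in Rroid, a long noncoding RNA locus near Id2, were compared with wildtype NK cells. Both came from spleen on the C57BL6 background and were sorted as negative for CD3 and CD5 and positive for NK1.1 and NKp46. ATAC-seq, in which Tn5 transposase inserts adapters into accessible DNA, was run in triplicate on 50000 cells per genotype, giving Rroid-deficient libraries 4, 5 and 6 and wildtype libraries 1, 2 and 3. The labels give neither the age of the mice nor how Rroid was disrupted, and they do not say whether the triplicates came from separate animals. The p-values therefore measure only the spread between these libraries, which may be technical.

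The respiratory chain passes electrons from NADH and succinate to oxygen through complexes I to IV and builds the proton gradient that ATP synthase, complex V, uses to make ATP. Apart from a small set encoded in mitochondrial DNA, the subunits are nuclear genes spread over many chromosomes, and their promoters are often bound by the factors NRF1, GABP and YY1 and by ERR receptors. Activated NK cells raise oxidative phosphorylation together with glycolysis, and both support their cytokine production.

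Reads in peaks numbered 27572006 to 41167610 in the Rroid-deficient libraries and 39847736 to 47939665 in the wildtype libraries, and Rroid-deficient libraries 4 and 6 were the shallowest. Log2 values correlated at 0.981 to 0.987 across peaks within a genotype and at 0.943 to 0.962 between genotypes. Of 8 NK marker genes, 7 had a peak within 1 kb of the start site; 4 of these fell and none rose, and the summed value was 16610 to 20197 in Rroid-deficient and 20969 to 24367 in wildtype libraries. B-cell markers summed to 595 to 727 in Rroid-deficient and 218 to 251 in wildtype libraries over the 2 of 6 genes with such a peak, and 1 rose; Cd79a, Ms4a1 and Pax5 had none. T-cell markers summed to 2493 to 2649 in Rroid-deficient and 2367 to 2485 in wildtype libraries over 3 of 7 genes, of which 2 rose, and Cd3e, Cd4, Cd8a and Cd8b1 had none. Myeloid markers, with such a peak at 2 of 7 genes, and erythroid markers, at 1 of 5, neither rose nor fell. By the same test, described below, 1235 of all 11847 peaks within 1 kb of a start site rose and 1034 fell, 19.2% together. The part of these marker shifts, or of depth, in the results that follow was not tested.

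At the start sites of respiratory chain genes, few peaks passed the test between Rroid-deficient and wildtype NK cells, and the changes were small. In each comparison a peak was called when limma, fitted over all 51775 peaks on log2(normalized reads + 1), gave a Benjamini-Hochberg adjusted p under 0.05. Of the 51 promoter peaks of the members, 3 were called, or 5.88%: Ndufa5 and Ndufs6 rose and Cox7b fell. Among all 6486 promoter peaks of the series, 18.7% were called, 9.94% as higher and 8.8% as lower. The log2 fold change, Rroid-deficient over wildtype, ran over the members from -0.42 to 0.51 with a median of -0.06, against a median of -0.03 over all promoter peaks. It lay within 0.3 of 0 at 49 of the 51 member promoters, or 96.1%, against 77.8% of all promoter peaks.

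Higher peaks carry less counting error, so the shares were also taken among high peaks. The member promoters had a median mean value of 1544 normalized reads, against 1430.9 over all promoter peaks. Among those with a mean value of 1000 or more, 2 of 37 member promoters were called, or 5.41%, against 14% of all 3878 such promoter peaks. All 37 of these member promoters lay within 0.3 of 0 on the log2 scale, against 91.9% of all such peaks. At an unadjusted limma p under 0.05, 9 of the 51 member promoters passed, against 2115 of all 6486 promoter peaks. The call count is small and moved with the libraries: it was 0 without wildtype library 2 or Rroid-deficient library 6, 1 without wildtype library 3 or Rroid-deficient library 4, and 4 without wildtype library 1. Leaving out Rroid-deficient library 5 gave 7, of which 6 fell.

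**Figure D1:**
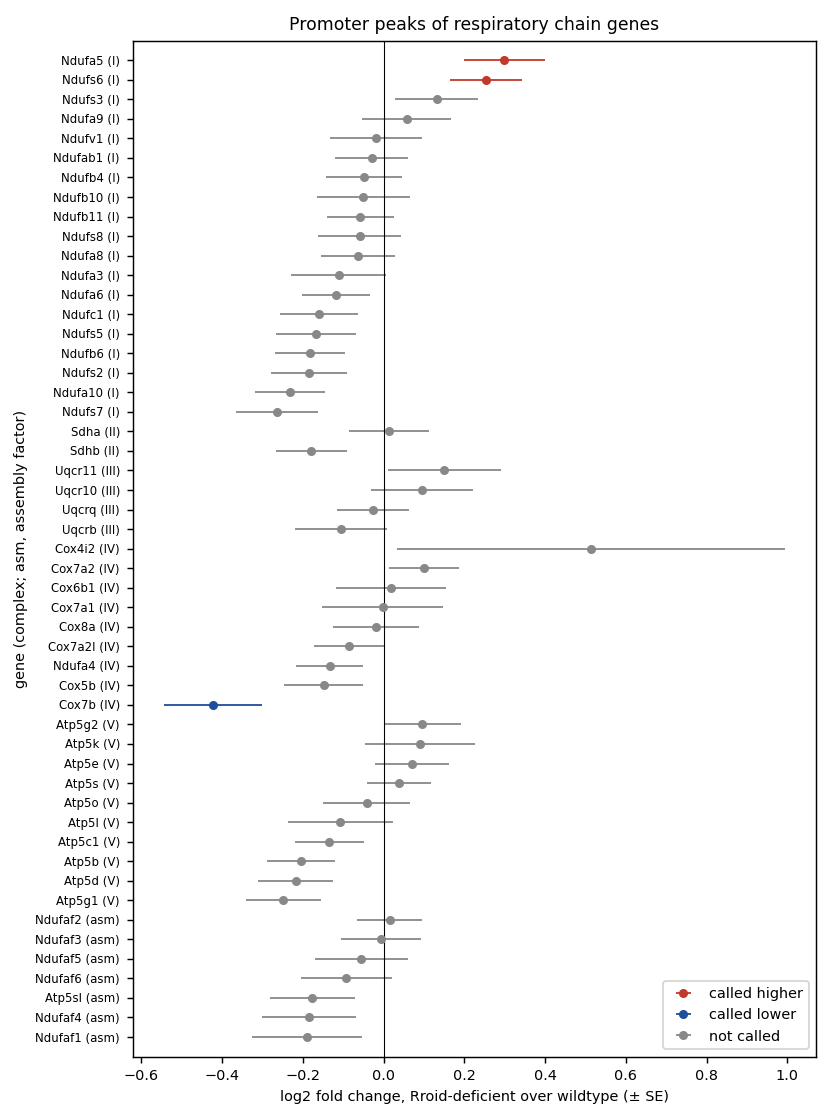
Log2 fold change (Rroid-deficient over wildtype) of the 51 promoter peaks of respiratory chain genes, grouped by complex, with bars of 1 standard error; red points were called higher, the blue point was called lower and grey points were not called. Most points sit within 0.3 of 0, and the widest bar is that of Cox4i2, a peak of few reads.

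Summed over the 51 member promoters, normalized reads were 86358, 95255 and 90020.4 in the Rroid-deficient libraries and 91653, 99542 and 96634 in the wildtype libraries. The ranges overlap, with the Rroid-deficient mean at 94.4% of the wildtype mean. The same ratio over all promoter peaks of the series was 94.8%, so the sum for the members moved with that of promoters at large. In bulk libraries, fewer cells with an open site and less opening per cell cannot be told apart.

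Upstream sequences are shown for the promoters named most often below: the 3 called ones, and the highest promoters of complexes V, IV and I. They are reference sequence from RefSeq on GRCm38.p6, read toward the gene, 5′ to 3′, and hold only bases that lie in no RefSeq gene within 250 bases of the start site. The only capitals mark a match to the NRF1 motif GCGCATGC, 83 to 76 bases before the start of Ndufa6, which reads there as its reverse complement.
Ndufa5, chr6:24527691-24527940, minus strand: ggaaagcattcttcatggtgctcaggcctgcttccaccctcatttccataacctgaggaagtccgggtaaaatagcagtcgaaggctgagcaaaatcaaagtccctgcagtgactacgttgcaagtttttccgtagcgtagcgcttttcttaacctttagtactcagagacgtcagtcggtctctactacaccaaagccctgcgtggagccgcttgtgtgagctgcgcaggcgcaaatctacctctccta
Ndufs6, chr13:73328483-73328502, minus strand: ctgtgcgcctgcgccggcac
Cox7b, chrX:106015450-106015699, plus strand: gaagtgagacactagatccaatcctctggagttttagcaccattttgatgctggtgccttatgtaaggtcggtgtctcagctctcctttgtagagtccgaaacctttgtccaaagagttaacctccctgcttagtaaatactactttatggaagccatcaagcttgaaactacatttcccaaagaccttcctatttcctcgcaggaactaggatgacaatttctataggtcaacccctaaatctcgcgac
Atp5g1, chr11:96075695-96075881, minus strand: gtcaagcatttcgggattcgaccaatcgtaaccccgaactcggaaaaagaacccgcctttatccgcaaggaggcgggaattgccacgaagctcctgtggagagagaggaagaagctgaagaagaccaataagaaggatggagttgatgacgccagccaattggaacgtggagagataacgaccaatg
Ndufa4, chr6:11907451-11907700, minus strand: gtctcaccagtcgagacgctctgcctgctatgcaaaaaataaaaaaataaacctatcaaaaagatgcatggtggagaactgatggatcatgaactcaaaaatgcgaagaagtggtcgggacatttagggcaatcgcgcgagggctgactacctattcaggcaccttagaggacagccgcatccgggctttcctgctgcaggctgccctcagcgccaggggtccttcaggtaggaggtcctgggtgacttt
Ndufa6, chr15:82354292-82354541, minus strand: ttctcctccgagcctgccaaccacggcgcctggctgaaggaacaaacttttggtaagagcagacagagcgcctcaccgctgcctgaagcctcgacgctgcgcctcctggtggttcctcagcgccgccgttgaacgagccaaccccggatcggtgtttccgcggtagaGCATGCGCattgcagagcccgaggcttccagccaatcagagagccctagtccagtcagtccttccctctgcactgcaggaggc
The Ndufs6 stretch is 20 bases long because Mrpl36, a mitochondrial ribosomal protein gene, fills the rest of its window. The Atp5g1 stretch runs from 250 to 64 bases before the start used, because the bases nearer to it lie inside the RefSeq span of Atp5g1 itself. Over the full 250-base window, GC content was 50.8% for Ndufa5, 55.2% for Ndufs6 and 43.6% for Cox7b, the called promoters. It was 53.6% for Atp5g1, 51.6% for Ndufa4 and 62.4% for Ndufa6, which were not called. CpG dinucleotides numbered 12, 14 and 5 in the windows of Ndufa5, Ndufs6 and Cox7b, and 15, 10 and 18 in those of Atp5g1, Ndufa4 and Ndufa6.

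Complex I, the NADH dehydrogenase, contributed 19 promoter peaks, of which 2 rose and none fell, and the log2 fold changes had a median of -0.06. Ndufa5, an accessory subunit of the arm that protrudes into the matrix, held 1655, 1622 and 1587 normalized reads in Rroid-deficient libraries, against 1164, 1322 and 1487 in wildtype libraries. All 3 Rroid-deficient values were above all 3 wildtype values, and the wildtype libraries were the more spread. The means were 1622 ± 33.8 in Rroid-deficient and 1324 ± 161 in wildtype libraries (SD, n = 3 each), a log2 fold change of 0.30 ± 0.10 (SE; limma adjusted p = 0.0371). The peak, at chr6:24477012-24478180 in mm9, is centred 91 bp past the Ndufa5 start site and is labelled as the promoter of Asb15, which starts on the opposite strand, so the peak spans both start sites. The call was lost without wildtype library 1 (limma adjusted p = 0.141) or 2 (0.0864), or Rroid-deficient library 4 (0.0957), 5 (0.0554) or 6 (0.0962).

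Ndufs6, a subunit of the same arm that carries a zinc ion, had the other rise. Its promoter, at chr13:73465479-73466397 in mm9, held 1956, 1867 and 1794 normalized reads in Rroid-deficient libraries, against 1649, 1491 and 1574 in wildtype libraries. The groups do not overlap, and the means were 1872 ± 81.1 in Rroid-deficient and 1571 ± 79.0 in wildtype libraries (SD, n = 3 each), with a log2 fold change of 0.25 ± 0.09 (SE; limma adjusted p = 0.045). The call was lost without wildtype library 2 (limma adjusted p = 0.167) or 3 (0.0812), or Rroid-deficient library 4 (0.148), 5 (0.0666) or 6 (0.0943), and with DESeq2 size factors (0.0535).

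The highest promoter peak of complex I was that of Ndufa6, an accessory subunit with a LYR motif. It held 2761, 3251 and 3018 normalized reads in Rroid-deficient libraries and 3223, 3381 and 3169.5 in wildtype libraries. The ranges overlap, and the log2 fold change of -0.12 was not called (limma adjusted p = 0.332). Ndufv1, the subunit that binds FMN and takes electrons from NADH, had 1661 ± 274 normalized reads at its promoter in Rroid-deficient and 1672 ± 161 in wildtype libraries (SD, n = 3 each).

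Complex II, succinate dehydrogenase, had 2 promoter peaks, and neither was called. The peak of Sdhb, the iron-sulfur subunit, held 2213, 2623 and 2339 normalized reads in Rroid-deficient libraries and 2647, 2820.3 and 2642 in wildtype libraries. The Rroid-deficient values were all below the wildtype ones, with library 5 the closest, and the log2 fold change was -0.18 (limma adjusted p = 0.145). Without Rroid-deficient library 5 it was -0.25 (limma adjusted p = 0.049). The peak of Sdha, the flavoprotein subunit, had a log2 fold change of 0.01.

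Complex III, the cytochrome bc1 complex, had 4 promoter peaks and no call, and a median of 0.03 in log2 fold change. The highest was that of Uqcrq, the ubiquinone-binding protein subunit, with 4221, 5073 and 4479 normalized reads in Rroid-deficient libraries and 4323, 5167 and 4531 in wildtype libraries. The 2 groups overlap over most of their ranges, with a log2 fold change of -0.03 (limma adjusted p = 0.864). The smallest p in the complex was that of Uqcr11, a small subunit, at 395, 461 and 449.8 normalized reads in Rroid-deficient and 399, 453 and 331 in wildtype libraries. Those ranges overlap as well (log2 fold change 0.15, limma adjusted p = 0.462).

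Complex IV, cytochrome c oxidase, had 9 promoter peaks, of which 1 fell. Cox7b, an X-linked structural subunit needed for assembly of the complex, held 503, 471 and 468 normalized reads in Rroid-deficient libraries, against 565, 656 and 721 in wildtype libraries. Every Rroid-deficient value was below every wildtype value. The means were 481 ± 19.1 in Rroid-deficient and 647 ± 78.1 in wildtype libraries (SD, n = 3 each), and the log2 fold change was -0.42 ± 0.12 (SE; limma adjusted p = 0.0165). The peak lies at chrX:103210681-103211410 in mm9, centred 6 bp past the start site. The call was lost without wildtype library 2 (limma adjusted p = 0.0597) or 3 (0.0765), or Rroid-deficient library 6 (0.0687).

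The highest promoter peak of complex IV belonged to Ndufa4, a protein first placed in complex I and later found to be a subunit of cytochrome c oxidase. It held 4100.4, 3933 and 3857 normalized reads in Rroid-deficient libraries and 3990.1, 4339 and 4747 in wildtype libraries. The ranges overlap (log2 fold change -0.13, limma adjusted p = 0.248). The lowest member promoter was that of Cox4i2, the isoform of subunit 4 known for its expression in lung, with 94.2, 18.1 and 97.9 normalized reads in Rroid-deficient and 47.2, 26.9 and 44.9 in wildtype libraries. Rroid-deficient library 5 had the lowest of the 6 values, and the log2 fold change of 0.51 ± 0.48 (SE) was not called (limma adjusted p = 0.467).

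Complex V, the ATP synthase, had 10 promoter peaks and no call. Their median was -0.07 in log2 fold change. An unadjusted limma p of 0.05 was passed by 3 of the 10, against 2115 of all 6486 promoter peaks. Its promoters were the highest of the set, with a median mean value of 2556.7 normalized reads. Atp5g1, which encodes a copy of subunit c of the membrane rotor, had the highest, with 5099, 6259.9 and 5627 in Rroid-deficient libraries and 6115, 7632 and 6457 in wildtype libraries. Rroid-deficient library 5 lies inside the wildtype range and the other two below it, and the log2 fold change was -0.25 (limma adjusted p = 0.0575). The peak was called without wildtype library 1 (limma adjusted p = 0.0318) or Rroid-deficient library 5 (0.0125), with a log2 fold change of -0.32 in both. Atp5b, the catalytic beta subunit, averaged 3482 ± 265 normalized reads in Rroid-deficient and 4012 ± 242 in wildtype libraries (SD, n = 3 each), with a log2 fold change of -0.21 (limma adjusted p = 0.082).

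The assembly factors and related proteins that share these name stems had 7 promoter peaks and no call, and a median of -0.09 in log2 fold change. Ndufaf2, a complex I assembly factor, had the highest, at 3262, 2957 and 3042 normalized reads in Rroid-deficient and 2968, 2979 and 3219 in wildtype libraries. The values interleave (log2 fold change 0.01, limma adjusted p = 0.917). Atp5sl, now named Dmac2 and known as a complex I assembly factor, had the smallest p of this set, with 1037, 1181 and 1138 normalized reads in Rroid-deficient and 1118, 1319.9 and 1364 in wildtype libraries (log2 fold change -0.18, limma adjusted p = 0.233).

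The 20 peaks within 1 kb of a member's start site but outside the promoter class gave 1 call, or 5%, against 19.6% of the 5361 such peaks of the series. Ndufb2, an accessory complex I subunit, held 1873, 1922 and 1989 normalized reads in Rroid-deficient libraries, against 2131, 2477 and 2679 in wildtype libraries. The groups do not overlap, and the peak fell: the means were 1928 ± 58.4 in Rroid-deficient and 2429 ± 277 in wildtype libraries (SD, n = 3 each), with a log2 fold change of -0.33 ± 0.09 (SE; limma adjusted p = 0.0168). It lies at chr6:39542176-39543265 in mm9, labelled as intron and centred 138 bp past the start site. The call was lost without wildtype library 2 (limma adjusted p = 0.0589) or 3 (0.0817), or Rroid-deficient library 4 (0.0523).

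**Figure D2:**
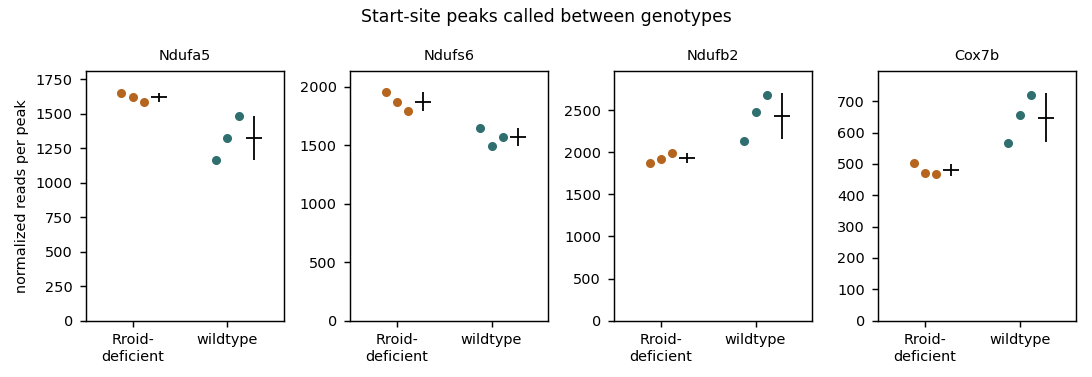
Normalized reads per library (points) with group means and SD (crosses) for the called peaks within 1 kb of a start site, Ndufa5, Ndufs6, Ndufb2 and Cox7b, Rroid-deficient left of wildtype. In each panel the 3 Rroid-deficient points sit on one side of the 3 wildtype points. The peaks were chosen by calls on these same values, so the separation follows largely from that choice.

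Just outside the call limit was Ndufa13, also known as GRIM-19, a complex I subunit whose start-site peak lies in an exon of Tssk6. It held 4435, 5358 and 4502 normalized reads in Rroid-deficient libraries and 4200.2, 4159 and 3659.9 in wildtype libraries. The groups do not overlap, yet the log2 fold change of 0.25 did not pass (limma adjusted p = 0.0501). Summed over the 20 peaks, the Rroid-deficient mean was 100.5% of the wildtype mean.

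In all, 71 of the 82 genes had a peak of their own within 1 kb of the start site. Of the other 11, 7 had a start site under a peak that the annotation gives to a neighbour. None of these 7 peaks was called, against 19.2% of all 11847 peaks within 1 kb of a start site. Their log2 fold changes ran from -0.17 to 0.24. Atp5j, a subunit of the ATP synthase stalk, shares its start site with Gabpa, which encodes the DNA-binding subunit of GABP. That peak held 5207.7, 4880.6 and 4861.4 normalized reads in Rroid-deficient and 4983.8, 5034.1 and 5585.0 in wildtype libraries, and the values interleave (log2 fold change -0.06, limma adjusted p = 0.604). Cox4i1, the common isoform of oxidase subunit 4, shares its start site with Emc8, whose peak averaged 3073 ± 212 normalized reads in Rroid-deficient and 3439 ± 50.3 in wildtype libraries (SD, n = 3 each; log2 fold change -0.16, limma adjusted p = 0.149). The peak of Timm8b over the Sdhd start site had the largest change of the 7, with 1523 ± 54.7 normalized reads in Rroid-deficient and 1292 ± 30.3 in wildtype libraries (SD, n = 3 each; log2 fold change 0.24, limma adjusted p = 0.0624).

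Away from start sites the members held more calls. Of the 82 distal peaks, which belong to 46 genes, 15 were called, or 18.3%: 11 rose and 4 fell. Over all 39928 distal peaks of the series, 27.8% were called, 14.8% as higher and 13.1% as lower. Log2 fold changes had a median of 0.01 in the members and of 0.00 over all distal peaks. Distal member peaks were low, with a median mean value of 122.9 normalized reads, against 138.3 over all distal peaks. With the start-site peaks of other classes added, 16 of 102 member peaks outside the promoter class were called, or 15.7%, against 26.9% of all 45289 such peaks.

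**Figure D3:**
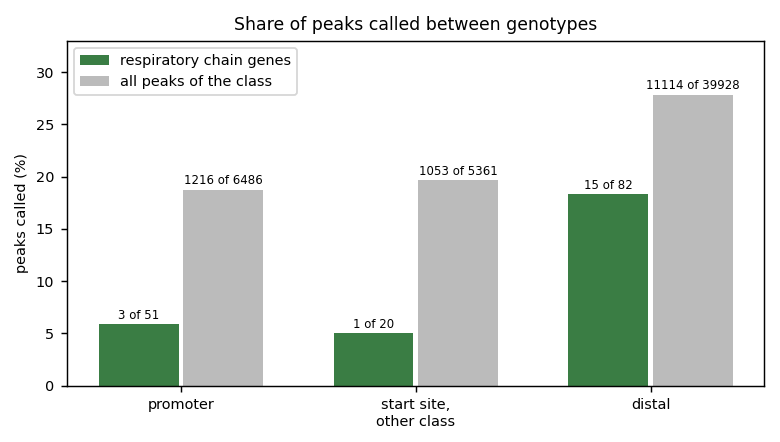
Bars give the percent of peaks called (limma adjusted p under 0.05) for the member peaks (green) beside all peaks of the series (grey) in each class, with the counts above them. The members' share is the smaller in each class, 5.88% against 18.7% at promoters and 18.3% against 27.8% at distal peaks.

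By location, 14 distal peaks lay inside the gene they are listed under, 23 inside another gene and 45 between genes. The numbers called were 3 (2 higher, 1 lower), 1 (lower) and 11 (9 higher, 2 lower). These are 21.4%, 4.35% and 24.4%, against 27.8% of all 39928 distal peaks. Shares of all distal peaks by location were not taken, so the differences between locations are not read as a trait of the members. By complex, distal calls were 3 higher and 2 lower of 23 peaks for complex I, none of 3 for complex II, 1 higher of 4 for complex III, 5 higher and 2 lower of 32 for complex IV, none of 12 for complex V, and 2 higher of 8 for assembly factors.

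Inside their own genes, the called peaks belonged to Ndufs4, Cox7a2 and Ndufaf6. Ndufs4, a subunit of the complex I matrix arm whose loss causes Leigh syndrome, had an intronic peak at chr13:115094347-115095628 in mm9, 83.3 kb past the start site. It held 658, 757 and 717 normalized reads in Rroid-deficient libraries, against 1582, 1187 and 1046 in wildtype libraries. The groups lie well apart, with wildtype library 1 the highest, and the log2 fold change was -0.82 ± 0.13 (SE; limma adjusted p = 0.000199). The Rroid-deficient mean of 710.5 ± 49.8 was 55.9% of the wildtype mean of 1272 ± 278 (SD, n = 3 each). The start sites on either side in the table are those of A430090L17Rik, 153.2 kb away, and Fst, 153.9 kb away.

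Cox7a2, the widely expressed isoform of an oxidase subunit, had an intronic peak 3.6 kb past its start site, at chr9:79603622-79604413 in mm9. It held 1272, 1198 and 1301 normalized reads in Rroid-deficient libraries, against 1027, 728 and 639.8 in wildtype libraries. Wildtype library 1 was the nearest to the Rroid-deficient values, and the groups do not overlap. The log2 fold change was 0.68 ± 0.14 (SE; limma adjusted p = 0.00142).

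Ndufaf6, a complex I assembly factor, had a low intronic peak at chr4:10980189-10980723 in mm9, 22.9 kb past its start site. Recovered reads were 58, 36 and 49 in Rroid-deficient libraries and 12, 10 and 16 in wildtype libraries, which correspond to 76.9, 34.3 and 59.2 normalized reads in Rroid-deficient libraries, against 10.7, 8.4 and 15.6 in wildtype libraries. The peak was near the floor of the table in wildtype cells, and the log2 fold change was 2.17 ± 0.41 (SE; limma adjusted p = 0.000916), the largest of any member peak. A second Ndufaf6 peak, 12.9 kb before the start site, held 86.2, 64.7 and 83.4 normalized reads in Rroid-deficient and 50.8, 37.0 and 48.8 in wildtype libraries. Its groups do not overlap (log2 fold change 0.77 ± 0.26, limma adjusted p = 0.0393), but the call was lost without wildtype library 2 (limma adjusted p = 0.159) or 3 (0.0657), or Rroid-deficient library 4 (0.121) or 6 (0.137).

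Downstream of Cox4i2, between the start sites of Id1 and Bcl2l1, a pair of peaks changed in opposite directions. A peak in the 3′ UTR of Bcl2l1, which encodes the survival protein BCL-XL, lies at chr2:152606478-152608585 in mm9 and is listed under Cox4i2 because that start site is the nearest, 27.6 kb away. It held 1341, 1560.2 and 1476 normalized reads in Rroid-deficient libraries, against 2211, 2264 and 2405 in wildtype libraries. The groups are far apart relative to their spread, with a log2 fold change of -0.65 ± 0.09 (SE; limma adjusted p = 4.94e-05). An intergenic peak at chr2:152600904-152601744 in mm9, 21.4 kb past the Cox4i2 start site, held 267, 295 and 308 normalized reads in Rroid-deficient libraries, against 142, 123 and 143 in wildtype libraries. It rose, with a log2 fold change of 1.09 ± 0.16 (SE; limma adjusted p = 7.51e-05), while the Cox4i2 promoter itself was not called. The start site of Id1, an inhibitor of E proteins like Id2, lies 39.3 kb from this peak and that of Bcl2l1 56.1 kb.

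A second pair of opposite changes followed Cox4i1. A peak 12.9 kb past its start site, at chr8:123204271-123205891 in mm9, held 639, 731 and 695 normalized reads in Rroid-deficient libraries, against 552, 518 and 434 in wildtype libraries. It rose, with a log2 fold change of 0.46 ± 0.12 (SE; limma adjusted p = 0.0103; 0.0503 without wildtype library 3). A peak at chr8:123207362-123208024 in mm9, 15.5 kb past the start site, held 214, 258 and 245 normalized reads in Rroid-deficient libraries, against 348, 324 and 291 in wildtype libraries. It fell, with a log2 fold change of -0.42 ± 0.15 (SE; limma adjusted p = 0.0407), and the call was lost without wildtype library 1 (limma adjusted p = 0.103) or 2 (0.114), Rroid-deficient library 4 (0.148) or 6 (0.0913), or with scaling to total reads in peaks (0.0745). On the far side, the next start site in the table is that of Irf8, a transcription factor of myeloid and NK cells, 55.2 kb from the first peak and 52.6 kb from the second.

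Near complex I genes, Ndufa9, whose product holds the junction of the matrix and membrane arms, had a peak 37.3 kb past its start site at chr6:126761333-126762440 in mm9. It held 225, 196 and 248 normalized reads in Rroid-deficient libraries, against 359, 317 and 311 in wildtype libraries. The groups do not overlap and this peak fell, with a log2 fold change of -0.56 ± 0.15 (SE; limma adjusted p = 0.0099). Ndufs5, an accessory subunit, had a peak 15.0 kb before its start site, at chr4:123409301-123411515 in mm9, with 333, 268 and 238 normalized reads in Rroid-deficient libraries, against 187, 164 and 150.4 in wildtype libraries. The groups do not overlap, and it rose by a log2 fold change of 0.73 ± 0.17 (SE; limma adjusted p = 0.00386).

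A peak 6.5 kb before Ndufv1 held 183, 219 and 183 normalized reads in Rroid-deficient libraries, against 142.5, 126 and 88.9 in wildtype libraries. It rose although the promoter of the gene did not (log2 fold change 0.73 ± 0.20, SE; limma adjusted p = 0.0121; 0.0615 without wildtype library 3). Ndufb3, a membrane-arm subunit, had a peak 27.4 kb past its start site with 134, 42.8 and 109 normalized reads in Rroid-deficient and 35.6, 34.4 and 42.0 in wildtype libraries. Rroid-deficient library 5 was within 1 read of the highest wildtype library, and the call (log2 fold change 1.18 ± 0.35, SE; limma adjusted p = 0.0192) was lost without wildtype library 2 (limma adjusted p = 0.0526) or Rroid-deficient library 4 (0.109) or 6 (0.1).

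For complex III, a peak 33.6 kb before Uqcrfs1, the gene of the Rieske iron-sulfur protein, held 95.5, 101 and 108 normalized reads in Rroid-deficient libraries, against 71.2, 52.9 and 50.8 in wildtype libraries. It rose (log2 fold change 0.80 ± 0.23, SE; limma adjusted p = 0.0175), a call lost without wildtype library 2 (limma adjusted p = 0.0669) or 3 (0.0627), or Rroid-deficient library 6 (0.0767).

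Cox7a2l, also called SCAF1, joins complexes III and IV into supercomplexes, and 2 of its 6 peaks rose. The one 14.5 kb past its start site held 66.3, 75.2 and 71.3 normalized reads in Rroid-deficient libraries, against 40.1, 20.2 and 25.4 in wildtype libraries (log2 fold change 1.34 ± 0.31, SE; limma adjusted p = 0.00422). The one 49.6 kb before it held 94.2, 106 and 119.7 in Rroid-deficient libraries, against 50.8, 71.4 and 71.3 in wildtype libraries. That call (log2 fold change 0.73 ± 0.23, SE; limma adjusted p = 0.0289) was lost without wildtype library 1 (limma adjusted p = 0.0826) or Rroid-deficient library 6 (0.13). Both peaks are low, and their groups do not overlap.

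The genes of the called distal peaks did not show calls at their own start sites. Of these 11 genes, 9 had a start-site peak of their own, and none of the 9 was called, with log2 fold changes of -0.17 to 0.51. Of all 71 member peaks within 1 kb of a start site 5.63% were called, and of all 11847 in the series 19.2%. The absence of calls among 9 peaks is thus near the members' own share. Ndufs4 held 604.7, 576.9 and 530.8 normalized reads at its start site in Rroid-deficient libraries and 694.5, 535.2 and 594.8 in wildtype libraries. Those values interleave (log2 fold change -0.09, limma adjusted p = 0.655), while its intronic peak fell to 55.9% of wildtype. Cox7a2 held 1891, 1909.6 and 1851 at its promoter in Rroid-deficient and 1813, 1674 and 1788 in wildtype libraries. The Rroid-deficient values were all the higher ones, with a log2 fold change of 0.10 that was not called (limma adjusted p = 0.425). Ndufa9 averaged 641 ± 35.2 normalized reads at its promoter in Rroid-deficient and 616 ± 4.1 in wildtype libraries (SD, n = 3 each). Ndufs5 averaged 1063 ± 56.5 in Rroid-deficient and 1195 ± 93.5 in wildtype libraries at its promoter (log2 fold change -0.17, limma adjusted p = 0.236), in the direction opposite to its distal rise. Whether the change at a distal peak and at the start site of the same gene differ was not tested.

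**Figure D4:**
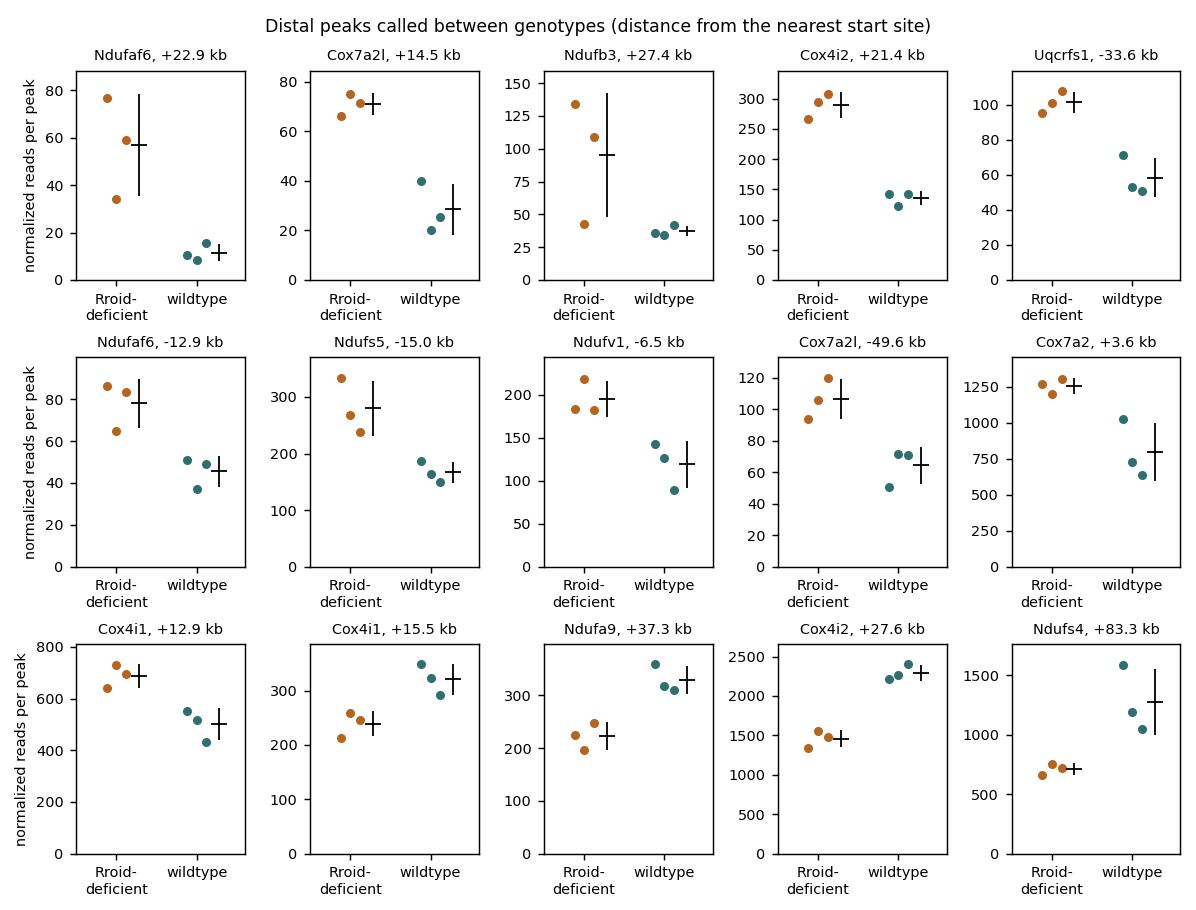
Normalized reads per library (points) with group means and SD (crosses) for the 15 called distal peaks, named by nearest gene and distance to its start site, Rroid-deficient left of wildtype, each panel on its own axis starting at 0. The 11 peaks that rose and the 4 that fell show no overlap of the groups, and the narrowest gap is at Ndufb3. The panels were chosen by calls on these same values, so the separation follows largely from that choice.

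With Rroid-deficient libraries 4 and 6 left out together, an alternative added with the values in view, library 5 was the only Rroid-deficient library. Only effect sizes are therefore given from that fit. None of the 19 called member peaks changed sign. Distal log2 fold changes that shrank included Ndufb3 (0.20, against 1.18 with all libraries), the intronic Ndufaf6 peak (1.53 against 2.17) and Ndufs4 (-0.73 against -0.82). Those that grew in size included Ndufa9 (-0.74 against -0.56), Ndufv1 (0.90 against 0.73) and the rising Cox4i1 peak (0.55 against 0.46). At the start sites of Ndufa5, Ndufs6 and Ndufb2 they were 0.30, 0.25 and -0.33, as with all libraries.

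Of the 82 genes, 43 had a single peak and 10 had 4 or more. Atp5o, the oligomycin-sensitivity subunit of ATP synthase, had 6 peaks and no call, with log2 fold changes of -0.05 to 0.33, and 4 of them lay inside Itsn1. Cox7c had 5 peaks and no call (-0.47 to 0.66), of which the farthest lay 354.4 kb from its start site. Ndufa13 had 5 and no call (-0.04 to 0.63), of which 4 lay inside Gatad2a, which encodes a subunit of the NuRD complex. Ndufb9 had 4 and no call, all with positive log2 fold changes (0.23 to 0.50), and all inside Mtss1. Cox6c had 4 and no call, all negative (-0.42 to -0.18). Uqcrfs1 had 5 peaks (-0.21 to 0.80) with 1 rise, Ndufaf6 5 (-0.09 to 2.17) with 2 rises, and Cox7a2l 6 (-0.09 to 1.34) with 2 rises. Cox4i1 (-0.42 to 0.46) and Cox4i2 (-0.65 to 1.09) had 5 peaks each, with 1 rise and 1 fall in each.

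**Figure D5:**
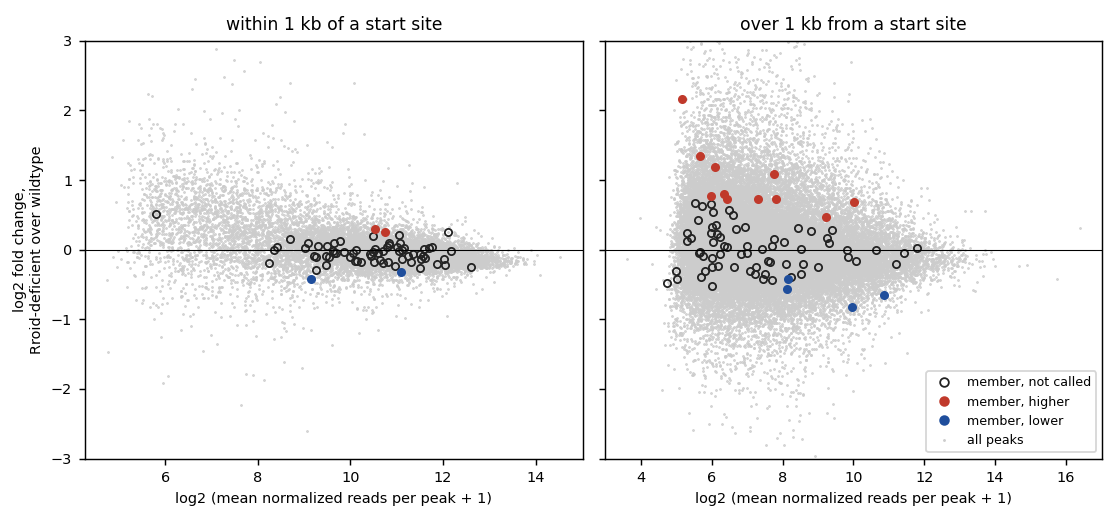
Log2 fold change (Rroid-deficient over wildtype) against log2 of mean normalized reads + 1 for the 153 member peaks (circles, filled where called) over all peaks of the series (grey), peaks within 1 kb of a start site left and distal peaks right; the vertical axis ends at -3 and 3. Member start-site peaks lie near 0 at large heights, and distal member peaks spread wider at smaller heights.

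Promoter sequences of RefSeq on GRCm38.p6 matched 63 of the 71 genes with a start-site peak, or 88.7%. Over the 250 bases before the start, the members had a median GC content of 55.2% and 14 CpG dinucleotides, against 60.0% and 16 in the 9161 genes of the series with a start-site peak and a sequence, and 52.0% and 6 in all 27025 promoters. The members' CpG median is nearer to that of other genes with an open start site, and their GC median is nearer to that of all promoters. Motifs were searched as exact letters on both strands, and a match describes the sequence only. The NRF1 motif GCGCATGC was found in 8 members, or 12.7%, against 4.6% of all genes with a start-site peak and 2.3% of all promoters. The members were Ndufa6, Ndufa8, Ndufaf4, Sdhb, Cox6a1, Atp5g2, Atp5k and Atp5l.

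The ETS-type motif CCGGAAG, which GABP binds, was found in 9 members, or 14.3%, against 13.5% of genes with a start-site peak and 7.1% of all promoters. The YY1 motif AAGATGG was found in none of the members' windows, against 3.9% and 4.5%. The ERR motif TCAAGGTCA was found in Atp5g3 alone, 1.6% of members against 0.3% and 0.4%. None of the called promoters held an exact match to GCGCATGC or CCGGAAG in its window. Variants of these letters were not searched, so an absence of NRF1 or ETS sites does not follow. A second gene starting on the opposite strand, within 1 kb or overlapping by at most 0.3 kb, was found for 15 of the 63 members, or 23.8%, against 16.7% of the 9161 genes. Such pairs included Ndufa5 with Asb15, Ndufa4 with Phf14, Ndufaf2 with Ercc8 and Sdha with Ccdc127.

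Other mitochondrial genes, listed by function and not by name stem, are read against the 18.7% of all promoter peaks that were called. Of 8 promoter peaks of regulators of oxidative phosphorylation, none was called. Counting all their 18 peaks within 1 kb of a start site, 1 was higher and 1 lower, or 11.1%, against 19.2% of all such peaks. Assembly factors and electron carriers outside the name rule had 24 promoter peaks, with 2 higher and 1 lower, or 12.5% called. The largest change there was at Coa4, a cytochrome c oxidase assembly factor, with 1198.8, 1594.5 and 1315.4 normalized reads in Rroid-deficient libraries, against 992.0, 1095.5 and 942.6 in wildtype libraries (log2 fold change 0.43, limma adjusted p = 0.00939). Cycs, which encodes cytochrome c, fell, with 3993 ± 270 normalized reads in Rroid-deficient and 4973 ± 436 in wildtype libraries (SD, n = 3 each; log2 fold change -0.32, limma adjusted p = 0.011).

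The tricarboxylic acid cycle had 10 promoter peaks and 1 call (10.0%), a fall at Fh1, fumarate hydratase, with 5215 ± 144 normalized reads in Rroid-deficient and 6175 ± 408 in wildtype libraries (SD, n = 3 each; log2 fold change -0.24, limma adjusted p = 0.0254). A list of mitochondrial import and MICOS genes, which also held other mitochondrial genes such as Slc25a4, Mfn2 and Hspd1, had 21 promoter peaks. Of these, 2 were higher and 5 lower, or 33.3% called against the 18.7% of all promoter peaks. All 3 named genes are among the called ones, so the share is not that of import and MICOS genes alone. Slc25a4, the ADP/ATP carrier that exports the ATP made by complex V, had the largest change of these lists, with 1469.3, 1591.6 and 1293.6 normalized reads in Rroid-deficient libraries, against 1043.6, 897.3 and 765.8 in wildtype libraries. The groups do not overlap, and the log2 fold change was 0.69 ± 0.12 (SE; limma adjusted p = 0.000371). Over the 51 member promoters the largest change past the call limit was the -0.42 of Cox7b.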

How the data were processed

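ATAC-seq was measured in 3 Rroid-deficient and 3 wildtype libraries of sorted splenic NK cells. The authors deposited a table of consensus peaks with normalized signal per library and the nearest gene; the submitters' processing notes name build mm9 and the tools BWA, HOMER, DiffBind, MACS2 2.1.0, R 3.1.1, Trimmomatic 0.32 and bcl2fastq 2.16.0. Distances to the start site are signed scores in bases from the authors' deposited annotation. The role and order of each, the read shift and the removal of duplicates or mitochondrial reads are not given in the sources used here. Each deposited value came out as a whole number of reads divided by 1 factor per library, for 100% of values within a tolerance of 0.01, and these factors were proportional to edgeR TMM effective library sizes.

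Values were taken as log2(value + 1) and fitted with limma 3.58.1 (trend) in R 4.3.3, with Benjamini-Hochberg adjustment over all 51775 peaks and a call at an adjusted p under 0.05. The filter of 10 normalized reads in at least 3 libraries removed 0 peaks. Fold changes on this scale understate changes of low peaks. The files' columns carry the genotype and a number but no link to single samples, so libraries are named by those numbers. edgeR 4.0.16 and DESeq2 1.42.0 on the recovered reads were alternatives, with other scalings, pseudocounts and filters, a limit of 0.01, and each library left out. The procedure was tested on simulated data.

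The members, gene lists and named genes were chosen with earlier results of these data known. Named peaks were all called member peaks, the highest and the smallest-p promoter of each complex, members with 4 or more peaks, and the largest called change of each other list; Ndufv1, Sdha, Cox4i2, Atp5b, Ndufa13, Cycs and the neighbours' peaks were named after their values were seen. Motif and base counts cover the 250 bases before the most upstream start among the promoter sequences of each gene. For Atp5g1 the RefSeq gene span begins farther upstream, so part of its window lies inside the gene. Sequence coordinates are on GRCm38.p6, while peak coordinates are on mm9 as deposited.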

Additional observations from a re-analysis of the deposited data

How the results depend on the processing

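The fit without Rroid-deficient libraries 4 and 6, an alternative chosen after seeing the data, leaves 1 Rroid-deficient library, so its calls are not counted here. The count of 3 called member promoters moved to 0 at an adjusted p limit of 0.01. It ran from 0 to 7 when 1 library was left out, and from 2 to 4 under the other settings. The count of 16 called member peaks outside the promoter class moved to 8 at 0.01 and to 9 without libraries 4 and 6, and ran from 11 to 19 with 1 library left out. Over all peaks, 13383 calls moved to 7630 at 0.01 and to 7370 without libraries 4 and 6, and ran from 9383 to 13637 with 1 library left out. Over the settings counted here, the members' called share was 0 to 13.7% at promoters, against 7.43 to 21.4% of all promoter peaks. Outside the promoter class it was 7.84 to 18.6%, against 15.8 to 28.9% of all such peaks. The members' share was the lower in each of these settings. None of the 19 called member peaks changed sign under any setting. Among the 8 uncalled named peaks, the log2 fold change of Uqcrq ran from -0.10 to 0.12 over the settings and that of Ndufaf2 from -0.05 to 0.07, and the other 6 kept their sign. Scaling to total reads in peaks moved the median log2 fold change to 0.00 over member promoters and to 0.05 over all peaks. A member list without look-alike names was planned and not run, because it matched the same peaks. Shallower Rroid-deficient libraries limit what low distal peaks can show. No paired analysis was possible because the Rroid-deficient columns are numbered 4 to 6 and share no number with the wildtype columns.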
